A study of Mus musculus with 3 samples.

Results

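The Zic and Engrailed genes *Zic1*, *Zic2*, *Zic4*, *Zic5*, *En1* and *En2* were followed across the cell types of the *Eed* cKO cerebellum and along granule cell differentiation. All 6 symbols were present among the 16181 genes of the deposited count tables, and the rule took them by symbol. The data were Drop-seq libraries from cerebella of 3 mice at P7, genotype Math1-Cre/Eed fl/fl, with 1 library per mouse and no treatment named in the labels. In this model Cre is driven by the promoter of *Atoh1* (Math1), so that *Eed* is deleted in cerebellar granule neuron progenitors (CGNPs) and the cerebellar granule neurons (CGNs) they form, while cells outside that lineage in the same animals are not targeted. All 3 mice carried the same genotype, and control mice were not analysed here. The comparisons below are therefore between cell groups of *Eed* cKO cerebella and say nothing of the effect of the deletion. Contrasts of granule lineage cells with cells outside the lineage also set targeted against untargeted cells, so lineage and deletion cannot be told apart there.

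*Zic* genes encode zinc finger transcription factors of the dorsal neural tube, and the Engrailed genes encode homeodomain repressors that mark the midbrain-hindbrain boundary and later pattern the cerebellar folia. *Zic1* and *Zic4* are needed together for normal cerebellar growth, and *Zic1* is a common marker of granule cells and their progenitors. *Zic2* and *Zic5* act earlier in forebrain and neural tube closure. *En1* and *En2* overlap in function during cerebellar patterning. Granule cells divide in the outer layer of the postnatal cerebellum under Sonic hedgehog (SHH) and then leave the cell cycle, while the GABAergic interneurons arise from another progenitor pool.

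The genes lie in 4 places of the mouse genome (GRCm38, GENCODE release M21). *Zic1* at chr9:91358058-91365810 (minus strand) and *Zic4* at chr9:91362413-91389348 (plus strand) point away from each other and overlap by 3398 bases, since the annotated start of *Zic4* lies inside *Zic1*. Whether reads were assigned by strand is not given in the sources used here, so reads in the overlap cannot be told apart, although the annotated 3′ ends of the genes, which Drop-seq reads favour, lie apart. *Zic5* at chr14:122456795-122465677 (minus strand) and *Zic2* at chr14:122475435-122479852 (plus strand) form a second pair in the same arrangement, 9757 bases apart. *En1* lies at chr1:120602418-120607992 and *En2* at chr5:28165694-28172166, both on the plus strand. Promoter sequence was matched for *Zic1*, *Zic4*, *Zic5* and *En1* in RefSeq windows of 300 bases (GRCm38.p6). The stretches upstream of every annotated start are shown for *Zic1* and *En1*, both higher in differentiating granule cells, and for *Zic5*, which did not pass that test, with each CG dinucleotide in capitals. *Zic4* also passed that test, but its window lies inside the annotated gene and holds no such stretch.

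Zic1 (chr9:91365811-91366018, minus strand): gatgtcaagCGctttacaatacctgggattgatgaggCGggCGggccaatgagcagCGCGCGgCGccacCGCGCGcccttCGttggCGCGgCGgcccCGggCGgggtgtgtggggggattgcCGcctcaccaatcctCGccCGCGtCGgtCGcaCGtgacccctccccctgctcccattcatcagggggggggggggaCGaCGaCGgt
En1 (chr1:120602237-120602417, plus strand): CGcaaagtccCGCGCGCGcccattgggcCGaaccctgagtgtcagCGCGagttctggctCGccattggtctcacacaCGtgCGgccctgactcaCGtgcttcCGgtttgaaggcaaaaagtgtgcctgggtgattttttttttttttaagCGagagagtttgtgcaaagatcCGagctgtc
Zic5 (chr14:122465678-122465908, minus strand): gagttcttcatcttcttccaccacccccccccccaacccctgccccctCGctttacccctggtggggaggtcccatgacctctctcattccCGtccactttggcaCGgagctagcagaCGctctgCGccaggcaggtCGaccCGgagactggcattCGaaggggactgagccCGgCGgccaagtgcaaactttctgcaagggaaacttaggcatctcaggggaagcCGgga

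CG, read on 1 strand since its complement is the same, occurred 31 times in the 300-base window of *Zic1*, more often than in 89.4% of 32851 promoters. The *En1* window held 23 CG, above 78.5% of promoters. The *Zic5* window held 15 and the *Zic4* window 8, against a median of 7 over all windows. The *Zic4* window (chr9:91368722-91369021) lies inside the annotated gene, downstream of its first start at 91362413. Its count therefore does not describe the sequence before that start. These counts describe the letters only, and no chromatin measurement was analysed here.

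After filtering, the 3 mice gave 918, 547 and 908 cells, 2373 in all, with a median of 919.5, 857 and 1408 unique molecular identifiers (UMIs, each 1 captured RNA molecule) per cell. Cells were clustered with all 6 genes left out, and the clusters were named from marker genes. CGNP/CGN-like cells numbered 1176, of which 657 were proliferating CGNP-like and 519 differentiating CGNP/CGN-like, and 938 cells belonged to types outside the *Atoh1* lineage. A cluster of 178 cells, 126 of them from mouse 3, carried 5 markers of differentiating CGNPs and CGNs but was led by *Syt4*, *Pcp4* and *Calb1*, and stayed unnamed. *Eed* itself stood at 30.4, 14.1 and 22.3 UMIs per 1000000 UMIs (CPM) in CGNP/CGN-like cells of mice 1, 2 and 3, below its 69.4, 79.4 and 45.5 CPM in cells outside the lineage. It is not given in the sources used here whether these 3′ reads cover the deleted part.

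Over all cells, *Zic1* gave 2922 UMIs, *Zic4* 779, *Zic5* 340, *En1* 230, *Zic2* 164 and *En2* 67. A level below is the number of UMIs of a gene per 1000000 UMIs of a cell group in 1 mouse. In bulk sums of this kind fewer expressing cells and less RNA per cell cannot be told apart. Levels are compared for each gene across cell groups and not between genes, since 3′ capture differs from gene to gene.

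*Zic1* was not confined to granule cells. Its level was 1617, 1569.7 and 1326 CPM in differentiating CGNP/CGN-like cells of mice 1, 2 and 3, and 1324, 1593 and 1230.1 CPM in interneuron-like cells, the GABAergic neurons marked by *Pax2* and *Gad1*. These ranges overlapped and held the highest levels among named types. Interneuron progenitor-like cells followed at 1002, 1213 and 861 CPM, below the interneuron-like cells without overlap. Vascular fibroblast-like cells held 771, 740.0 and 624 CPM and proliferating CGNP-like cells 743, 546 and 501 CPM, both below the interneuron progenitor-like cells and overlapping with each other. Pericyte-like cells held 645 ± 263 CPM (SD, n = 3), astrocyte-like cells 338 ± 139 and myoid-like cells, which express muscle genes such as *Myog*, 269 ± 102. Pericyte-like cells overlapped with proliferating CGNP-like cells and astrocyte-like with myoid-like cells, while every proliferating CGNP-like sum stood above every astrocyte-like sum. Oligodendrocyte-like cells followed with 160.0 ± 42.7 CPM, every sum below the lowest myoid-like one. Endothelial-like cells at 88.99 ± 92.99 and myeloid-like cells at 80.4 ± 73.5 stood lowest. The 6 *Zic1* UMIs in 49 myeloid-like cells serve as a reference level in cells that should lack the transcript. Whether they came from free RNA or another source was not tested.

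**Figure D1:**
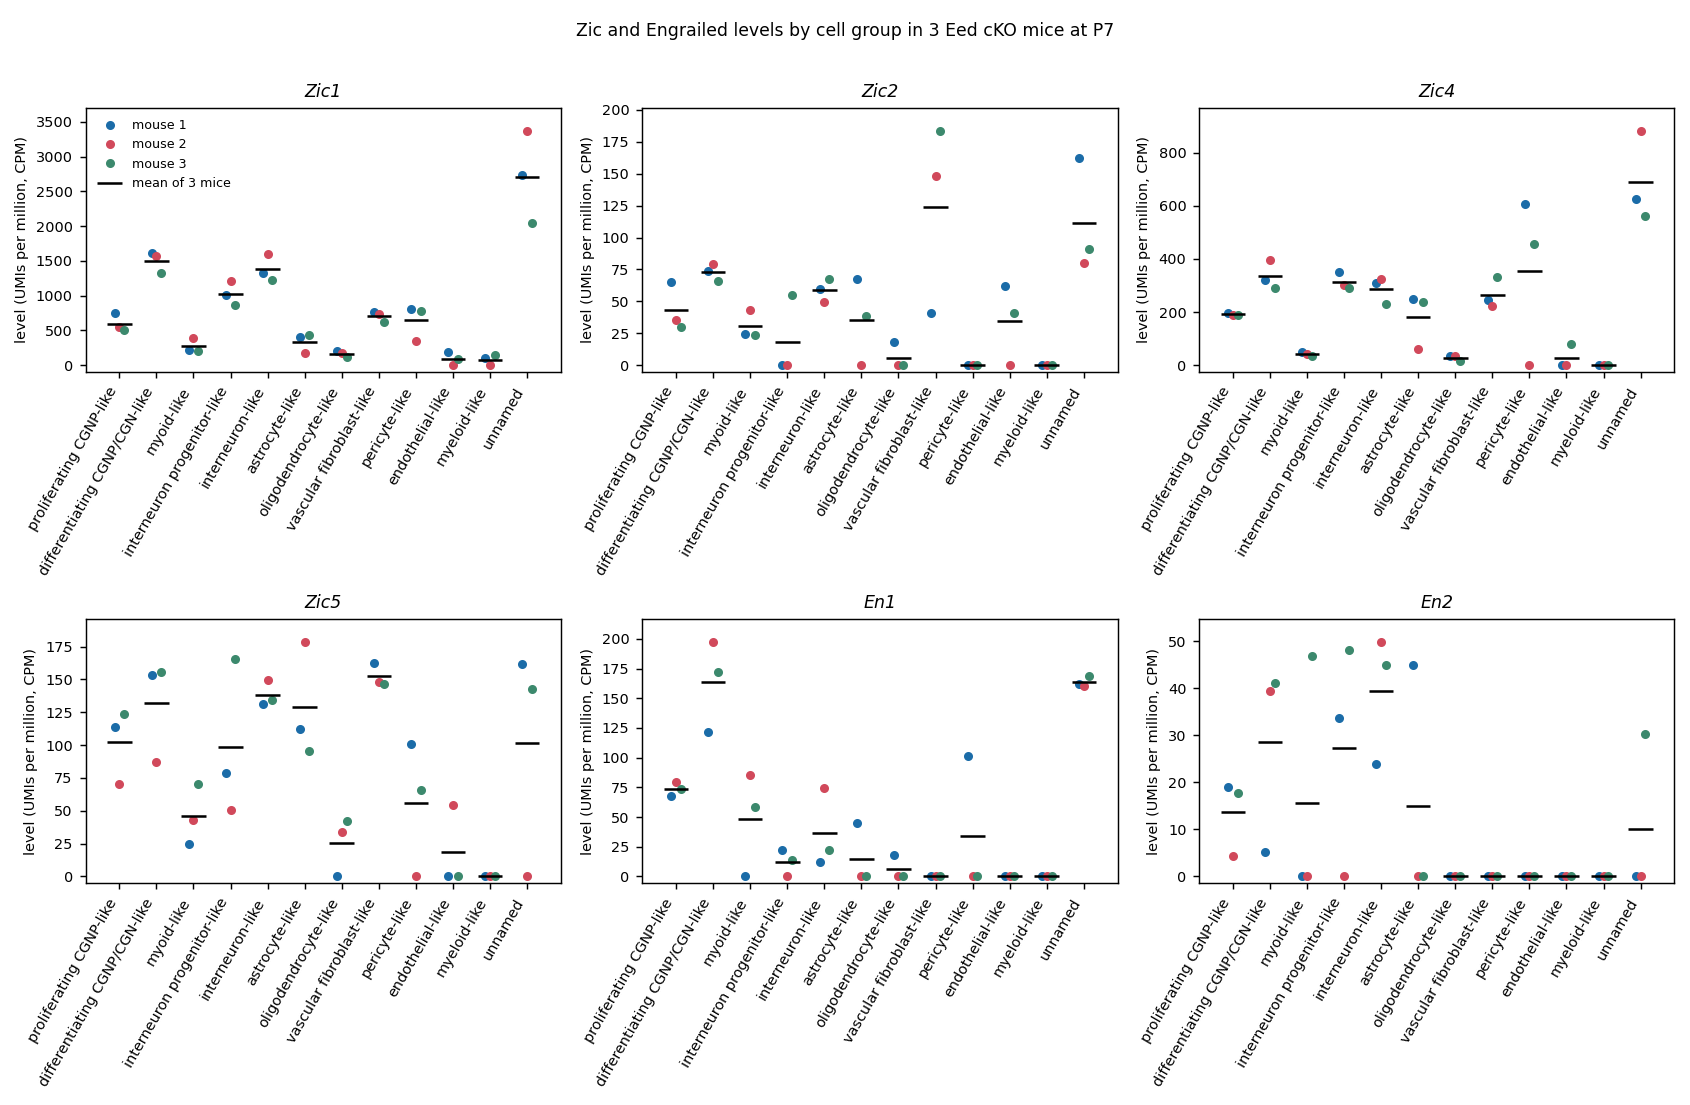
Levels of the 6 genes (CPM, linear axes) in 11 named cell groups and the unnamed cluster; each point is 1 of 3 mice and each bar their mean. *Zic1* and *Zic4* are seen in granule, GABAergic and vascular groups, while *En1* stands out in CGNP/CGN-like cells and in the unnamed cluster.

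*Zic4* was also seen beyond granule cells. It reached 322, 394 and 292 CPM in differentiating CGNP/CGN-like cells, 349, 303 and 289 CPM in interneuron progenitor-like cells and 310.2, 324 and 229 CPM in interneuron-like cells, and the 3 groups overlapped. Proliferating CGNP-like cells were lower at 197, 189 and 189 CPM. Pericyte-like cells held 355 ± 316 CPM (SD, n = 3), from only 13 UMIs and none in mouse 2, and vascular fibroblast-like cells 265 ± 57.2. Astrocyte-like cells held 248, 59.4 and 239.6 CPM from 37 UMIs, above the proliferating CGNP-like cells in mice 1 and 3 and below them in mouse 2. Myoid-like cells at 49.2, 42.9 and 35.2 CPM and oligodendrocyte-like cells at 35.8, 33.9 and 14.2 CPM stood below every granule, GABAergic and astrocyte-like sum. No *Zic4* UMI was seen in 49 myeloid-like cells, where 3 UMIs would have been 53.9 CPM, so that CGNP/CGN-like cells stood at least 4.49-fold higher over the 3 mice together.

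*Zic5* and *Zic2*, the pair on chromosome 14, were low and broad. *Zic5* was at 153, 86.8 and 156 CPM in differentiating CGNP/CGN-like cells, 113, 70.5 and 124 CPM in proliferating CGNP-like cells and 131, 149 and 135 CPM in interneuron-like cells. The differentiating sums overlapped with both others, while the interneuron-like sums stood above the proliferating ones. Its highest mean, 152 ± 8.66 CPM, came from 10 UMIs in 47 vascular fibroblast-like cells. The *Zic2* level was 73.99, 78.9 and 65.7 CPM in differentiating CGNP/CGN-like cells and 64.8, 35.2 and 29.5 CPM in proliferating ones, with the differentiating cells higher in each mouse. Interneuron progenitor-like cells gave 8 *Zic2* UMIs, all of them in mouse 3, and vascular fibroblast-like cells also gave 8, or 124 ± 74.4 CPM.

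*En1*, the Engrailed gene with the most UMIs, had its highest mean level among named types in differentiating granule cells, and the unnamed cluster stood at a like level (162, 160.3 and 169 CPM). It was at 122, 197 and 172 CPM in differentiating and 67.5, 79.3 and 73.7 CPM in proliferating CGNP-like cells. Interneuron-like cells held 11.9, 74.7 and 22.4 CPM from 9 UMIs, interneuron progenitor-like cells 22.5, 0 and 13.8 CPM from 4, and astrocyte-like cells 2 UMIs in 1 mouse. Myoid-like cells gave 7 *En1* UMIs, none, 2 and 5 in mice 1, 2 and 3, or 48.1 ± 43.8 CPM (SD, n = 3). In mouse 2 the myoid-like and interneuron-like sums reached into the range of the proliferating cells or above it. Vascular fibroblast-like, endothelial-like and myeloid-like cells had none. Against the level that 3 UMIs would give, *En1* was at least 2.30-fold, 2.65-fold and 1.96-fold higher in CGNP/CGN-like cells, over the 3 mice together. *En2* was too sparse to order. Its UMIs numbered 30 in CGNP/CGN-like, 14 in interneuron-like and 10 in interneuron progenitor-like cells, and its level was 19.6 ± 6.96 CPM in CGNP/CGN-like cells against 19.8 ± 6.72 in cells outside the lineage.

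Shares of cells were read beside those of myeloid-like cells, which should lack the genes. *Zic1* was detected in 58.1% ± 8.21 (SD, n = 3) of CGNP/CGN-like cells, and the cells outside the lineage gave 45.3% ± 11.5. With each cell thinned to 500 UMIs these shares were 35.8% ± 2.41 and 30.5% ± 5.82. In myeloid-like cells the share was 9.84% ± 10, and 5% ± 8.66 after thinning, at a median depth of 958 UMIs against 1025.5 in CGNP/CGN-like cells. *En1* was detected in 11.4% ± 4.38 of CGNP/CGN-like cells against 1.32% ± 0.598 outside the lineage, or 6.03% ± 1.08 and 0.900% ± 0.248 after thinning. Among myeloid-like cells it was seen in 0 of 49, which allows a share of up to 6.12% of cells with a UMI and does not limit the share that expresses the gene. Intervals and limits of this kind cover counting error only.

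To ask whether the genes mark the granule lineage, the summed UMIs of CGNP/CGN-like cells were set against those of the types outside the lineage within each mouse and compared with edgeR's quasi-likelihood test, 3 sums against 3. *En1* was 6.94-fold higher in CGNP/CGN-like cells (85.8, 122 and 115 against 19.4, 19.8 and 10.98 CPM; log2 fold change 2.80, SE 0.35, adjusted p = 1.94e-05), in 3 of 3 mice. It was 1 of 5 members tested that passed an adjusted p of 0.05, against 12.9% of 7593 genes in either direction and 4.06% higher in CGNP/CGN-like cells. Since only the granule lineage is targeted for *Eed* deletion, this contrast cannot separate a trait of the lineage from an effect of the deletion. *Zic1* did not pass (1038, 913 and 846 against 733, 715 and 764 CPM; log2 fold change 0.33, 95% interval -0.03 to 0.69, adjusted p = 0.262), although it was higher in CGNP/CGN-like cells of 3 of 3 mice. With the mouse as a block, a pairing given by the shared library, *Zic1* passed (log2 fold change 0.32, SE 0.09, adjusted p = 0.0129), as it did with the unnamed cluster counted as differentiating (adjusted p = 0.0366). The intervals of *Zic2* (-0.28 to 1.12), *Zic4* (-0.18 to 0.68) and *Zic5* (-0.29 to 0.80) all held 0 on the log2 scale. The *En1* difference was smaller but still passed when no upper limit was set on molecules per cell, where 178 cells took the name Purkinje-like and counted as outside the lineage (log2 fold change 1.35, SE 0.28, adjusted p = 0.00475), and at clustering resolution 0.4 (log2 fold change 2.19, SE 0.39, adjusted p = 0.000616).

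Single cell types were compared in a fit over all named groups, in which only *Zic1* and *Zic4* passed the filter on low counts. Neither differed past the threshold between CGNP/CGN-like and interneuron-like cells, where 14.4% of 1537 genes did. *Zic1* was lower in CGNP/CGN-like cells in 3 of 3 mice (log2 fold change -0.62, 95% interval -1.15 to -0.09, adjusted p = 0.113), and it passed with the mouse as a block (log2 fold change -0.62, SE 0.19, adjusted p = 0.00776), with DESeq2 (adjusted p = 0.00599), with RLE size factors (adjusted p = 0.0488) and at clustering resolution 0.4 (log2 fold change -1.21, SE 0.27, adjusted p = 0.000624). *Zic4* did not differ past the threshold (log2 fold change -0.26, 95% interval -0.90 to 0.39, adjusted p = 0.712). Against interneuron progenitor-like cells, where 8.33% of genes passed, neither gene did, with intervals of -0.63 to 0.46 for *Zic1* and -1.04 to 0.29 for *Zic4*. Against astrocyte-like cells *Zic1* was 2.19-fold higher in CGNP/CGN-like cells (log2 fold change 1.13, SE 0.31, adjusted p = 0.00370), while *Zic4* was not past the threshold (log2 fold change 0.01, 95% interval -0.76 to 0.78, adjusted p = 0.997), so that 1 of 2 members passed against 30% of genes. The *Zic1* call was lost at clustering resolution 0.4 (log2 fold change 0.50, SE 0.31, adjusted p = 0.237), where only clusters named proliferating CGNP-like made up the CGNP/CGN-like group, and among cells of at least 1000 UMIs (log2 fold change 0.82, SE 0.33, adjusted p = 0.0559). Against oligodendrocyte-like cells both passed, against 17.8% of genes, with *Zic1* 5.95-fold higher (log2 fold change 2.57, SE 0.35, adjusted p = 1.03e-07) and *Zic4* 9.02-fold higher (log2 fold change 3.17, SE 0.58, adjusted p = 4.45e-05). Against vascular fibroblast-like cells, where 30.4% of genes passed, neither did, with intervals of -0.37 to 0.92 and -1.18 to 0.60. The median log2 fold change of all genes tested was 0.10, 0.13 and 0.16 in the last 3 comparisons.

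A fit restricted to the 2 groups compared, an alternative chosen after the data were seen, kept more genes and tested *En1* in each pair. *En1* was higher in CGNP/CGN-like cells than in interneuron-like cells (log2 fold change 2.01, SE 0.47, adjusted p = 0.00447), than in interneuron progenitor-like cells (log2 fold change 2.74, SE 0.58, adjusted p = 0.00145) and than in astrocyte-like cells (log2 fold change 2.99, SE 0.82, adjusted p = 0.00571). It was also higher than in oligodendrocyte-like cells (log2 fold change 3.98, SE 0.87, adjusted p = 0.00150), as was *Zic5* (log2 fold change 2.17, SE 0.65, adjusted p = 0.0205). These 4 pairs set 158 *En1* UMIs in CGNP/CGN-like cells against 9, 4, 2 and 1. For *Zic5* 178 UMIs stood against 4 in oligodendrocyte-like cells. Both genes thus met the filter on low counts through the CGNP/CGN-like sums, where they were high, and these calls add no separate support. Neither *Zic2* nor *Zic5* passed against interneuron-like, interneuron progenitor-like or astrocyte-like cells in this fit. In the 4 fits 16%, 8.93%, 22.5% and 16.3% of genes passed. DESeq2 gave *En1* no adjusted p against interneuron-like cells and did not call it in the other 3 pairs, nor did it call *Zic5* against oligodendrocyte-like cells (adjusted p = 0.128).

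Along granule cell differentiation *Zic1*, *Zic4* and *En1* rose. *Zic1* was 743, 546 and 501 CPM in proliferating and 1617, 1569.7 and 1326 CPM in differentiating cells of mice 1, 2 and 3, without overlap, and 2.52-fold lower in the proliferating cells (log2 fold change -1.33, SE 0.20, adjusted p = 4.48e-05). *Zic4* was 197, 189 and 189 CPM against 322, 394 and 292 CPM, 1.74-fold lower in proliferating cells (log2 fold change -0.80, SE 0.21, adjusted p = 0.00783). *En1* was 67.5, 79.3 and 73.7 CPM against 122, 197 and 172 CPM, 2.22-fold lower (log2 fold change -1.15, SE 0.27, adjusted p = 0.00360). These were 3 of the 5 members tested, against 28.7% of 4894 genes in either direction and 14.6% lower in proliferating cells. *Zic2* (log2 fold change -0.70, 95% interval -1.49 to 0.09, adjusted p = 0.180) and *Zic5* (log2 fold change -0.39, 95% interval -0.99 to 0.22, adjusted p = 0.350) were also lower in proliferating cells of 3 of 3 mice but did not pass. *En2*, with 14 against 16 UMIs, was too low to test. The median of the 5 members was -0.80 on the log2 scale, and that of all genes tested 0.01. DESeq2 called only *Zic1* of the 3, and *Zic4* fell short without mouse 1 (edgeR adjusted p = 0.0613) or mouse 2 (adjusted p = 0.0862).

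Other markers moved between these sums. The summed level of 5 erythroid genes was 2852, 388 and 4605 CPM in proliferating and 1818, 1412 and 136 CPM in differentiating cells, higher in proliferating cells of mice 1 and 3 and lower in mouse 2. That of 10 Purkinje cell genes was 365, 339 and 719.7 CPM in proliferating and 650.0, 741 and 1289 CPM in differentiating cells, higher in the latter in each mouse. The 5 unipolar brush cell genes summed to 35.1, 8.81 and 23.6 CPM in proliferating and 84.6, 174 and 156 CPM in differentiating cells, also higher in the latter in each mouse. The 9 interneuron progenitor genes ran the other way, at 229.6, 233 and 313 CPM in proliferating and 143, 149.9 and 144 CPM in differentiating cells. Their part in the result was not tested.

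To place the rise, CGNP/CGN-like cells of each mouse were ordered by a score, late neuronal markers minus cell cycle markers, and split into 5 equal parts. *Zic1* was at 575, 543 and 510.1 CPM in the most cycling part, 746, 703 and 739 CPM in the middle part and 1814, 1719.8 and 1656 CPM in the last. The step between the middle and the next part, at 1513, 1369.7 and 1265 CPM, was larger in every mouse than that between the first and the middle part. *En1* was 83.4, 51.7 and 77.5 CPM in the first, 61.4, 127 and 97.2 CPM in the middle and 187, 230.5 and 219.9 CPM in the last part, with the last above the first in 3 of 3 mice. *Zic4* had reached 272, 281 and 272 CPM by the middle part from 183, 194 and 161 CPM, and its spread between mice widened in the last part (304, 461 and 207 CPM). *Zic5* showed no order along the score, with means of 69.3, 157, 100.3, 111 and 138 CPM. Each part is a range of a score and not a cell type, and 58 cells held a score of exactly 0.

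**Figure D2:**
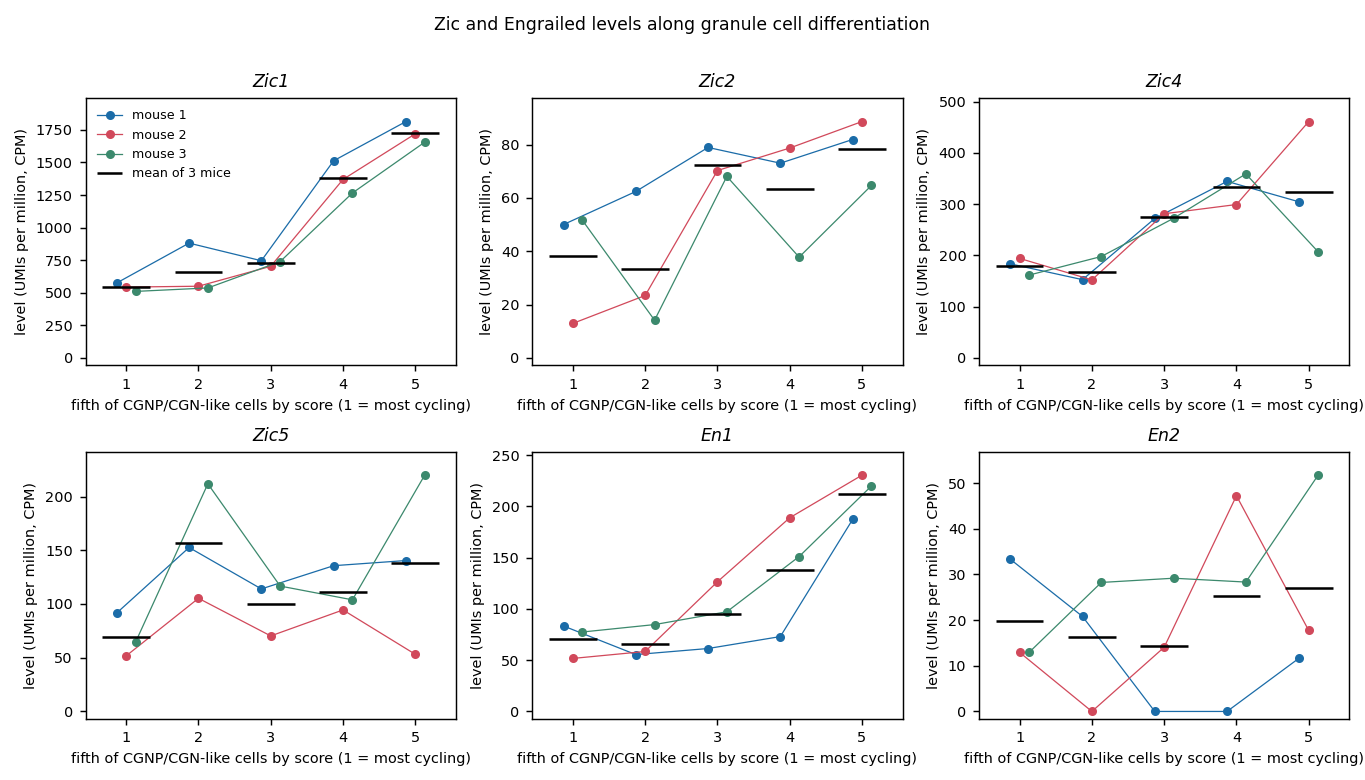
Levels of the 6 genes (CPM, linear axes) in 5 equal parts of the CGNP/CGN-like cells of each mouse, ordered from most cycling (1) to most neuronal (5); lines join the parts of 1 mouse and bars give the mean. *Zic1* climbs most after the middle part in all 3 mice, and *En1* is highest in the last part.

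The clusters were also grouped into 4 stages. Between replicating and mitotic progenitors, the clusters with most replication or mitosis markers, none of 4 members tested passed edgeR's adjusted p, and none had an unadjusted p under 0.05 (of 3351 genes, 3.73% passed after adjustment and 11.2% unadjusted), with *Zic1* at 768, 549 and 498 CPM against 674, 533 and 509 CPM and an interval of -0.41 to 0.51. DESeq2 called none either. From the proliferating stages to early postmitotic cells, marked by *Mfap4* and *Barhl1*, *Zic1* rose to 1079, 1163 and 818 CPM (log2 fold change 0.74, SE 0.20, adjusted p = 0.00976), in 3 of 3 mice. It was the only member called there of 4 tested, against 11.5% of genes, and it was not called without mouse 2 (adjusted p = 0.193) or with no filter on low counts (log2 fold change 0.60, SE 0.21, adjusted p = 0.103). The larger replicating cluster was led by the haemoglobin gene *Hbb-bs* and by *Atoh1*, and the part of haemoglobin RNA in this step was not tested. *Zic4* stood at 262, 263 and 429 CPM and missed the threshold (log2 fold change 0.74, 95% interval 0.18 to 1.30, adjusted p = 0.0784), but passed with the mouse as a block (log2 fold change 0.74, SE 0.25, adjusted p = 0.0273) and with finer clusters (adjusted p = 0.0195). *En1* did not differ past the threshold at this step, at 14.6, 65.8 and 93.9 CPM from 11 UMIs (log2 fold change -0.38, 95% interval -1.36 to 0.60, adjusted p = 0.705). Replicating cells held 59.1, 85.2 and 72.4 CPM of *En1* and mitotic cells 90.5, 50.8 and 76.3 CPM. The early level was thus below both in mouse 1, between them in mouse 2 and above both in mouse 3.

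The last step, from early to late postmitotic cells marked by *Cntn2* and *Adcyap1*, was the one at which *En1* rose past the threshold in the main clusters. It reached 182, 271 and 207 CPM, 3.92-fold above the early stage (log2 fold change 1.97, SE 0.44, adjusted p = 0.00497), in 3 of 3 mice. *Zic1* rose again, to 1923, 1798 and 1550.3 CPM (log2 fold change 0.89, SE 0.22, adjusted p = 0.00958). These were 2 of 4 members tested, against 8.24% of genes in either direction and 4.3% higher in late cells. *Zic5* was 174, 111 and 189 CPM against 117, 43.9 and 80.5 CPM (log2 fold change 1.05, 95% interval 0.17 to 1.93, adjusted p = 0.144), and *Zic4* was not past the threshold (log2 fold change 0.17, 95% interval -0.44 to 0.77, adjusted p = 0.831). Without mouse 1 or without mouse 2 neither *En1* nor *Zic1* passed at this step. The early *En1* level rests on 1, 3 and 7 UMIs in the 3 mice, and without mouse 3 the difference was larger (log2 fold change 2.74, SE 0.68, adjusted p = 0.00587). With finer clusters the early group also took in 135 cells led by *Cntn2* and *Adcyap1*, with 5 late and 3 early stage markers, so that the step was not the same one. There *En1* passed (log2 fold change 1.52, SE 0.38, adjusted p = 0.0279) and *Zic1* did not (log2 fold change 0.46, SE 0.21, adjusted p = 0.296). Among cells of at least 1000 UMIs, the single differentiating cluster was put in the early stage by its share of markers but was led by *Cntn2* and *Adcyap1*, with 5 late and 3 early markers. *Zic1* (log2 fold change 1.51, SE 0.20, adjusted p = 8.10e-07) and *En1* (log2 fold change 1.41, SE 0.39, adjusted p = 0.00694) were higher in it than in the proliferating stages, which does not place the rise at the early stage.

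**Figure D3:**
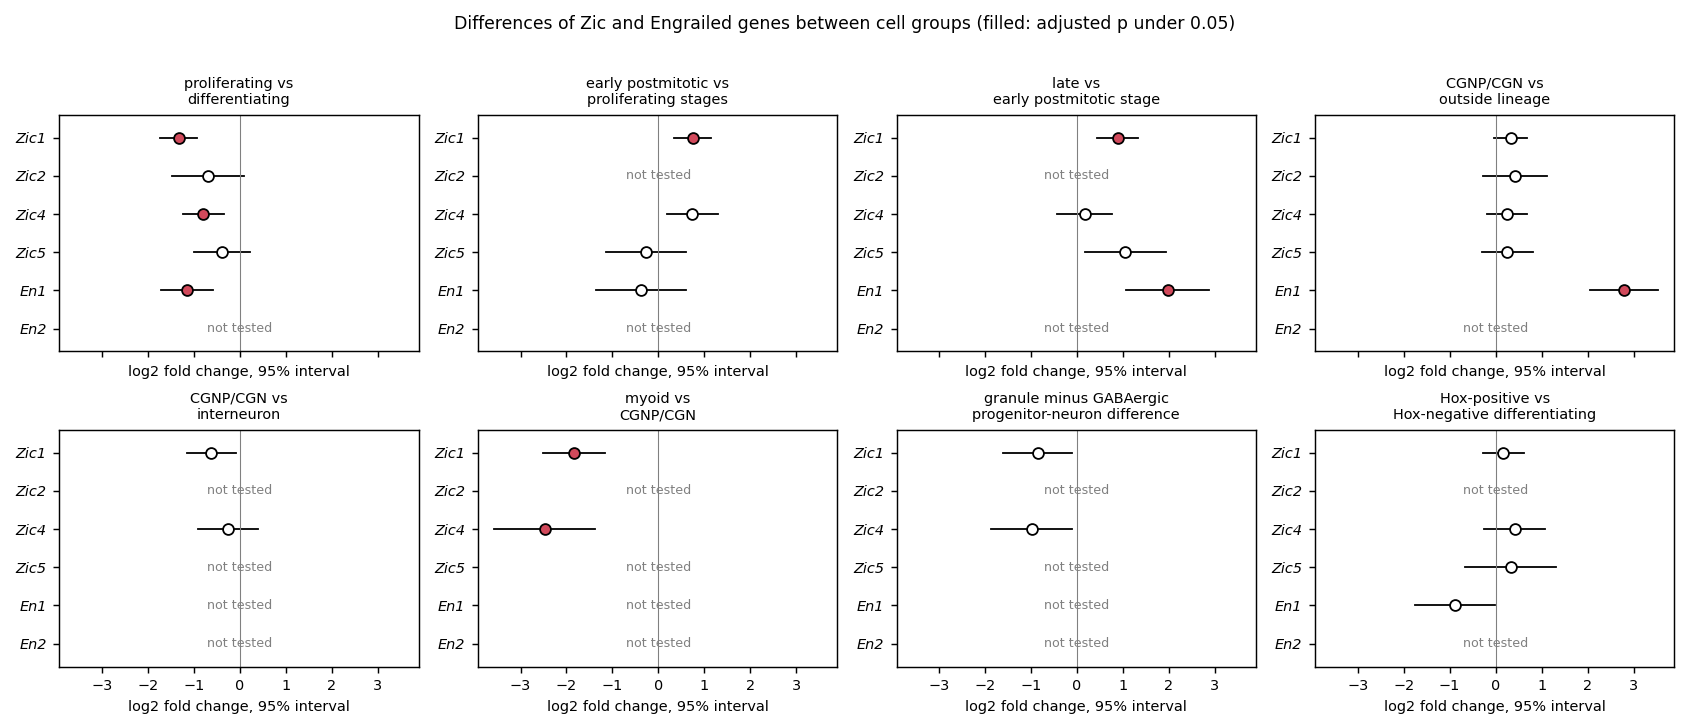
Log2 fold changes of the 6 genes with 95% intervals in 8 comparisons of sums per mouse; filled points passed edgeR's adjusted p of 0.05, open points did not. *Zic1* and *En1* pass in both the proliferating-differentiating and the late-early comparison. In these unpaired fits *En1* alone passes against cells outside the lineage, where *Zic1* also passed with the mouse as a block.

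The GABAergic progenitors and neurons offered a second path from division to differentiation. *Zic1* was 1002, 1213 and 861 CPM in interneuron progenitor-like and 1324, 1593 and 1230.1 CPM in interneuron-like cells (log2 fold change -0.53, 95% interval -1.09 to 0.03, adjusted p = 0.270), lower in the progenitors of 3 of 3 mice but not past the threshold. *Zic4* did not differ past it either (log2 fold change 0.12, 95% interval -0.61 to 0.85, adjusted p = 0.947), while 10.9% of genes did. The log2 difference of progenitors from neurons was -1.12, -1.52 and -1.40 for *Zic1* in the granule lineage of the 3 mice and -0.40, -0.39 and -0.51 in the GABAergic cells. For *Zic4* the values were -0.71, -1.06 and -0.63 and 0.17, -0.09 and 0.34. The granule difference was the larger drop in 3 of 3 mice for both genes. The test of this difference between lineages did not pass after adjustment for *Zic1* (log2 fold change -0.86, 95% interval -1.61 to -0.11, adjusted p = 0.412) or *Zic4* (log2 fold change -0.99, 95% interval -1.87 to -0.10, adjusted p = 0.433). Unadjusted, edgeR's p was 0.0256 and 0.0290 for the 2 genes, and 9.06% of 2130 genes had an unadjusted p under 0.05, against 1.27% that passed after adjustment. DESeq2 called neither.

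Myoid-like cells, 81 cells with *Myog*, *Actc1* and troponin genes, held little of either gene of the chromosome 9 pair. *Zic1* was 221, 386 and 199.5 CPM against 1038, 913 and 846 CPM in CGNP/CGN-like cells, 3.59-fold lower (log2 fold change -1.84, SE 0.33, adjusted p = 2.19e-05). *Zic4* was 49.2, 42.9 and 35.2 CPM against 239.5, 263 and 232 CPM, 5.54-fold lower (log2 fold change -2.47, SE 0.54, adjusted p = 0.000452). Both members tested passed, against 23.1% of genes, and both were lower in 3 of 3 mice. Among cells of at least 1000 UMIs the *Zic1* difference was larger (log2 fold change -2.44, SE 0.39, adjusted p = 3.92e-06). *Zic1* was still seen in 31.8% ± 7.59 of myoid-like cells, against 9.84% ± 10 of myeloid-like cells, at median depths of 1312 and 958 UMIs, and after thinning in 16.2% ± 2.49 against 5% ± 8.66. In the fit restricted to these 2 groups, *En1* (log2 fold change -1.09, 95% interval -2.26 to 0.07, adjusted p = 0.210) and *Zic5* (log2 fold change -1.03, 95% interval -2.12 to 0.06, adjusted p = 0.207) did not pass, while 19.6% of genes did. *En1* had 7 UMIs in myoid-like cells, and the part of this low count in the missing call was not tested.

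Many differentiating granule cells of these mice carry *Hox* transcripts, the posterior identity genes that Polycomb normally keeps silent in the cerebellum. A *Hox* UMI was seen in 75.5% of differentiating CGNP/CGN-like cells, against 8.16% of interneuron-like and 10.2% of myeloid-like cells. Since *Hox* genes and the 6 members were left out of the clustering, the 392 cells with and the 127 cells without a *Hox* UMI could be compared. None of the 4 members tested passed edgeR's adjusted p, and 1 had an unadjusted p under 0.05. Of 1782 genes, 0.786% passed after adjustment and 6.29% unadjusted, and DESeq2 called none of the members. *Zic1* was 1625, 1601 and 1365 CPM in *Hox*-positive and 1590.1, 1419.7 and 1163 CPM in *Hox*-negative cells (log2 fold change 0.17, 95% interval -0.27 to 0.61, adjusted p = 0.9997). *Zic4* was 329, 438 and 294 CPM against 299.6, 183 and 280.0 CPM (log2 fold change 0.41, 95% interval -0.26 to 1.08, adjusted p = 0.944). Both were higher in *Hox*-positive cells of 3 of 3 mice, with the widest gap for *Zic4* in mouse 2, but among cells of at least 1000 UMIs both were lower in *Hox*-positive cells of 2 of 3 mice (log2 fold change -0.08 for *Zic1* and -0.13 for *Zic4*). *En1* went the other way, at 103, 133 and 167 CPM in *Hox*-positive against 184, 504 and 194 CPM in *Hox*-negative cells, lower in 3 of 3 mice (log2 fold change -0.88, 95% interval -1.76 to -0.01, adjusted p = 0.780, unadjusted p = 0.0481). The *Hox*-negative values of *En1* rest on 8, 11 and 9 UMIs. *Hox*-negative cells were shallower, with a median of 717 UMIs against 949, so a missing *Hox* UMI can come from depth. Thinned to 500 UMIs per cell, *Zic1* still did not differ past the threshold (log2 fold change 0.32, SE 0.23, adjusted p = 0.944), *Zic4* was higher in *Hox*-positive cells of 2 of 3 mice, and *En1* was too low to test and lower in 2 of 3.

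**Figure D4:**
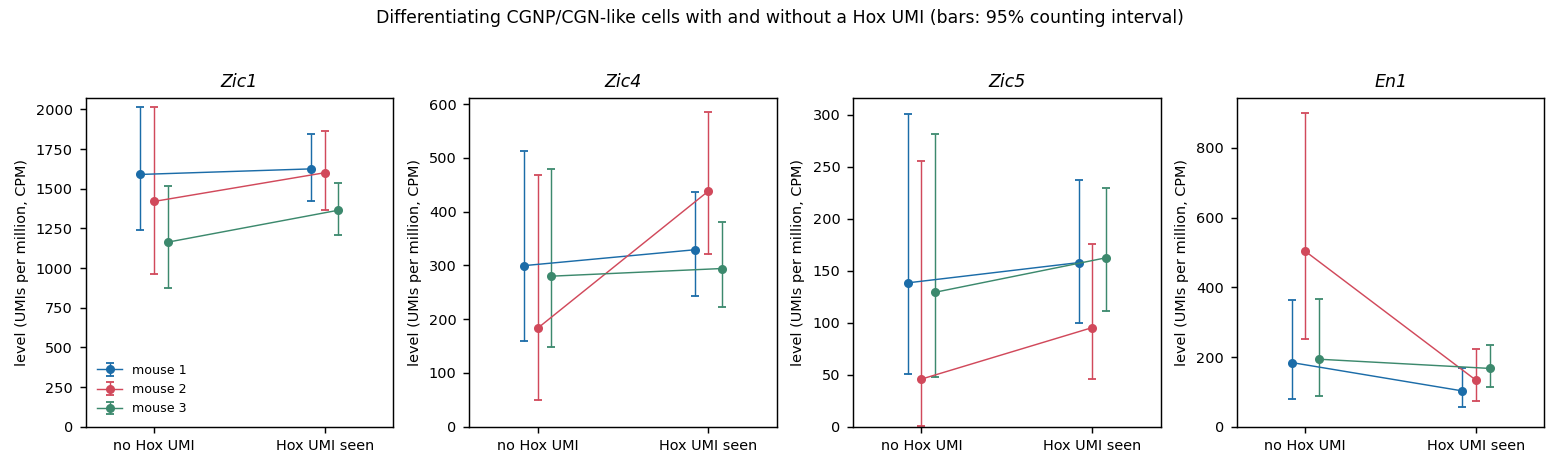
Levels of *Zic1*, *Zic4*, *Zic5* and *En1* (CPM, linear axes) in differentiating CGNP/CGN-like cells without and with a *Hox* UMI; lines join the 2 sums of 1 mouse and bars are 95% counting intervals. *Zic1* differs little between the 2 sums of a mouse, and the *En1* intervals of the 2 groups overlap in mice 1 and 3.

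Other regional transcription factors of the cerebellum and isthmus gave the neighbourhood of these genes. Of 17 listed factors in the tables, 8 could be tested between proliferating and differentiating cells, and 4 were lower in proliferating cells and none higher, with a median log2 fold change of -0.89, where 28.7% of all genes tested were called and 14.6% were lower. They were *Nfib* (log2 fold change -1.37, SE 0.20, adjusted p = 3.51e-05), *Mab21l1* (log2 fold change -1.20, SE 0.26, adjusted p = 0.00200), *Nfix* (log2 fold change -1.03, SE 0.18, adjusted p = 0.000241) and *Meis1* (log2 fold change -0.98, SE 0.29, adjusted p = 0.0174). *Nfib* and *Nfix* encode nuclear factor I proteins of maturing granule cells. Against cells outside the lineage 4 of 9 tested were higher in CGNP/CGN-like cells and none lower (median 0.48, all genes 0.02), against 12.9% of all genes called and 4.06% called higher. These were *Barhl2* (log2 fold change 3.93, SE 0.48, adjusted p = 1.67e-05), the anterior factor *Otx2* (log2 fold change 3.77, SE 0.41, adjusted p = 4.71e-06), *Mab21l1* (log2 fold change 2.79, SE 0.30, adjusted p = 4.71e-06) and *Meis1* (log2 fold change 0.86, SE 0.27, adjusted p = 0.0458). Lineage and deletion cannot be told apart for these factors either. In myoid-like cells the 3 factors tested, *Nfia*, *Nfib* and *Nfix*, were all lower than in CGNP/CGN-like cells, where 23.1% of all genes were called in either direction, at log2 fold changes of -1.99, -1.87 and -1.64.

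Of 13 SHH pathway genes, which drive CGNP division, 2 could be tested between proliferating and differentiating cells, and both were higher in proliferating cells, the reverse of *Zic1* and *En1*, against 28.7% of all genes called. They were the coreceptor gene *Gas1* (log2 fold change 2.02, SE 0.51, adjusted p = 0.00579) and the SHH target *Mycn* (log2 fold change 1.24, SE 0.22, adjusted p = 0.000375). *Gas1* also fell from early to late postmitotic cells (log2 fold change -4.14, SE 1.10, adjusted p = 0.0171), the step at which *En1* rose. Against cells outside the lineage, 2 of 5 tested were higher in CGNP/CGN-like cells, *Boc* (log2 fold change 1.74, SE 0.45, adjusted p = 0.0138) and *Mycn* (log2 fold change 0.83, SE 0.22, adjusted p = 0.0170), and none lower, against 12.9% of all genes called and 4.06% called higher. Of 10 genes for Engrailed cofactors of the TLE and PBX families, 3 were tested between proliferating and differentiating cells and none passed (median -0.20). Against cells outside the lineage 7 were tested and 2 called, where 12.9% of all genes were. *Tle1* was higher in CGNP/CGN-like cells (log2 fold change 1.33, SE 0.34, adjusted p = 0.0124) and *Tle4* lower (log2 fold change -1.30, SE 0.36, adjusted p = 0.0225).

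Over the 11 named cell groups, the genes whose log2 levels ran most like *Zic1* among 5911 others with at least 100 UMIs were *Brsk2* (r = 0.96), *Ube2d1* (r = 0.93), *Ubtf* (r = 0.93), *Zic4* (r = 0.92), *Prrt1* (r = 0.92). Those most like *Zic4* were *Zic1* (r = 0.92), *Zic5* (r = 0.92), *2700081O15Rik* (r = 0.91), *Polr2d* (r = 0.90), *Setbp1* (r = 0.89). For *Zic5* they were *Zic4* (r = 0.92), *Capn7* (r = 0.92), *Mdk-ps1* (r = 0.92), *Men1* (r = 0.90), *Fbxo22* (r = 0.90), and for *Zic2* *Rb1cc1* (r = 0.91), *Zscan21* (r = 0.90), *Mtif3* (r = 0.89), *Dapk1* (r = 0.89), *Cdk7* (r = 0.88). *En1* ran most like *Usp11* (r = 0.91), *Nans* (r = 0.90), *Uncx* (r = 0.89), *Scg2* (r = 0.88), *Nhlh1* (r = 0.88). The neighbours *Zic1* and *Zic4* were thus each among the 5 closest of the other, as *Zic4* and *Zic5* were, while *Zic2* and *Zic5* (r = 0.72) were not. The points share 3 libraries and small groups of different depth, and the correlations are a description over 11 groups with no test.

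Within CGNP/CGN-like cells, most cells gave a UMI of no member or of 1. Of 1176 cells, 323 showed none of the 6 genes, 494 showed 1, 251 showed 2, 94 showed 3 and 14 showed 4. A *Zic1* UMI was seen in 71.4, 60.6 and 77.8% of *En1*-positive cells of mice 1, 2 and 3, and in 59.4, 47.8 and 62.4% of *En1*-negative ones. *En1*-positive and *En1*-negative cells had median depths of 929.5, 872 and 1626 and 991, 859.5 and 1486 UMIs. For the neighbours *Zic4* and *Zic1* the shares were 71.2, 56.2 and 72.5% and 57.3, 47.2 and 62.03%, but *Zic4*-positive cells were also deeper, at 1142, 969 and 1917 against 932, 836 and 1356 UMIs. The part of depth in these shares was not tested.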

How the data were processed

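Drop-seq libraries of 3 P7 Math1-Cre/Eed fl/fl cerebella were analysed from the deposited raw counts, whole numbers of UMIs per gene and barcode that the authors made from their reads. The submitters' processing notes name STAR and the mouse build mm10 (GRCm38). The tables held 3481 barcodes, no barcode was shared between libraries, and pairs of mice differed by more than sampling noise. Barcodes were kept at 500 or more UMIs and 200 or more genes, below a limit of 4 SD over their library's median for both, and with at most 10% mitochondrial UMIs, after the study's methods. Scrublet (scanpy 1.11.5) called 14 cells as doublets, which were kept in the main analysis. Clustering used Seurat 5.3.0 and sctransform 0.4.2 on 10012 genes, 15 principal components and resolution 0.8, with 76 genes held out, which are the members, the context lists and 30 Hox genes. The groups still came from other genes of the same cells. A cluster was named from at least 3 markers of a type, each in 10% of its cells and 2-fold higher than elsewhere after adding 20 CPM, more than of any other type, and stayed unnamed where a type outside the same lineage had more markers among its 10 leading genes by fold, as for the 178 cells. Where cell cycle genes alone gave a CGNP name against the leading genes, naming was repeated without them. A granule cluster took the stage with the largest share of its markers. These rules were set after the clusters were seen.

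For each mouse, the UMIs of a cell group were added up, and these sums entered edgeR 4.0.16 (TMM, filterByExpr, quasi-likelihood F test, Benjamini-Hochberg over all genes tested, threshold 0.05) in R 4.3.3, with DESeq2 1.42.0, other normalization, filters, clusterings and a block for the mouse as alternatives. The SE was taken from the F value of the test and the fold change. Sums of 1 mouse share a library; their deviations from group means correlated across genes by 0.254, 0.192 and 0.318 in mice 1, 2 and 3 for the proliferating and differentiating sums. On simulated data with 200 genes changed by 2 or 4 times, the test for proliferating vs differentiating recovered 46.4% and 86.7% of them over 4894 genes, and that for late against early stages 26.2% and 74.2% over 3351. The members and lists were chosen with earlier results of these data known. The text names all 6 members, and from each context list up to 4 genes past the threshold with the largest change.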

Additional observations from a re-analysis of the deposited data

How the results depend on the processing

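Of 553 log2 fold changes of tested members under alternatives, 497 kept their direction and their side of the threshold, 13 fell below it, 9 passed it newly and 34 changed sign. The fit with the mouse as a block, which pairs sums of the same animal, changed the calls named in the report and no other call of a member. Without mouse 1 or 3, *Zic4* was too low to test in oligodendrocyte-like and myoid-like comparisons. With 3 mice and 67 to 2922 UMIs per gene, the counts of *Zic2*, *Zic5* and *En2* limit these comparisons, and differences between groups of under 100 cells rest on few UMIs. At resolution 0.4 no cluster was named as differentiating, so the comparisons of stages, of the granule with the GABAergic difference, of proliferating with differentiating cells and of *Hox* groups were not run there; with at least 1000 molecules per cell no vascular fibroblast-like or late and early stages could be compared. The fit of only the groups compared and the count of the unnamed cluster as differentiating were chosen after seeing the data. Where a value changed, the cause was not tested.

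The number of members called changed in some settings. It was, with DESeq2, 1 for proliferating against differentiating, 1 for CGNP/CGN against interneuron. It was, with the mouse as a block, 2 for CGNP/CGN against outside the lineage, 1 for CGNP/CGN against interneuron, 2 for early postmitotic against proliferating. It was, with the unnamed cluster counted as differentiating, 2 for CGNP/CGN against outside the lineage. It was, with RLE size factors, 1 for CGNP/CGN against interneuron. It was, with no filter on low counts, 1 for CGNP/CGN against interneuron, 1 for CGNP/CGN against interneuron progenitor, 2 for CGNP/CGN against astrocyte, 5 for CGNP/CGN against oligodendrocyte, 1 for CGNP/CGN against vascular fibroblast, 0 for early postmitotic against proliferating. It was, at clustering resolution 0.4, 1 for CGNP/CGN against interneuron, 0 for CGNP/CGN against astrocyte. It was, with only the groups compared in the fit, 1 for CGNP/CGN against interneuron, 1 for CGNP/CGN against interneuron progenitor, 2 for CGNP/CGN against astrocyte, 4 for CGNP/CGN against oligodendrocyte, 1 for CGNP/CGN against vascular fibroblast. It was, with at least 1000 molecules per cell, 0 for CGNP/CGN against astrocyte, 3 for early postmitotic against proliferating. It was, at clustering resolution 1.2, 2 for early postmitotic against proliferating, 1 for late against early postmitotic. With each mouse left out in turn it ranged from 2 to 3 for proliferating against differentiating, 1 to 2 for CGNP/CGN against oligodendrocyte, 1 to 2 for myoid against CGNP/CGN, 0 to 1 for early postmitotic against proliferating, 0 to 2 for late against early postmitotic. Log2 fold changes that changed sign, none of them called in the main fits, were at clustering resolution 0.4, -0.15 for Zic1 (CGNP/CGN against outside the lineage), -0.34 for Zic4 (CGNP/CGN against astrocyte), -0.32 for Zic1 (CGNP/CGN against vascular fibroblast). They were, with no upper limit on molecules, -0.043 for Zic4 (CGNP/CGN against outside the lineage), -0.11 for Zic1 (replicating against mitotic), -0.40 for Zic5 (replicating against mitotic), 0.13 for En1 (early postmitotic against proliferating). They were, with no filter on low counts, 0.031 for Zic4 (CGNP/CGN against interneuron), 0.12 for Zic1 (CGNP/CGN against interneuron progenitor), 0.41 for Zic4 (CGNP/CGN against vascular fibroblast), 0.019 for En1 (replicating against mitotic). They were, with the unnamed cluster counted as differentiating, 0.17 for Zic1 (CGNP/CGN against interneuron progenitor). They were, with RLE size factors, -0.18 for Zic4 (CGNP/CGN against astrocyte). They were, with DESeq2, -0.18 for Zic4 (CGNP/CGN against astrocyte). They were, with the mouse as a block, -0.014 for Zic4 (CGNP/CGN against astrocyte). They were, with at least 1000 molecules per cell, -0.46 for Zic4 (CGNP/CGN against astrocyte), 0.78 for Zic5 (early postmitotic against proliferating), 1.41 for En1 (early postmitotic against proliferating), -0.081 for Zic1 (Hox-positive against Hox-negative), -0.13 for Zic4 (Hox-positive against Hox-negative). They were, with no genes held out, -0.083 for Zic4 (CGNP/CGN against astrocyte), -0.013 for Zic1 (replicating against mitotic). They were, without called doublets, -0.10 for Zic1 (replicating against mitotic), -0.18 for Zic5 (replicating against mitotic), 0.0078 for En1 (early postmitotic against proliferating). They were, at clustering resolution 1.2, 0.29 for Zic5 (early postmitotic against proliferating), 0.51 for En1 (early postmitotic against proliferating). Over the fits without 1 mouse, those that changed sign ranged from -0.18 to 0.069 for Zic1 (CGNP/CGN against interneuron progenitor), -0.16 in the fits that tested it for Zic4 (CGNP/CGN against astrocyte), -0.37 to 0.17 for En1 (replicating against mitotic), -0.078 to 0.28 for Zic4 (replicating against mitotic), -1.11 to 0.15 for En1 (early postmitotic against proliferating), -0.18 to 0.76 for Zic4 (late against early postmitotic).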

Other observations

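The unnamed cluster of 178 cells entered none of the main fits, and it held the highest levels of the chromosome 9 pair. *Zic1* was at 2732, 3366 and 2037 CPM in mice 1, 2 and 3, above the 1617, 1569.7 and 1326 CPM of differentiating CGNP/CGN-like cells in each mouse. *Zic4* was at 625, 882 and 562 CPM, also above the differentiating cells of each mouse. *En1* was at 162, 160.3 and 169 CPM from 7, 2 and 39 UMIs, within the range of differentiating cells. A *Zic1* UMI was seen in 89.8% ± 9.79 (SD, n = 3) of these cells, or 71.6% ± 17.2 after thinning to 500 UMIs. A *Hox* UMI was seen in 64.04%, against 8.16% of interneuron-like cells. The cluster was deep, with a median of 1408.5 UMIs, 70.8% of it came from mouse 3, and its summed level of 10 Purkinje cell genes was 1737, 481 and 2846 CPM. Which cells it holds was not tested.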
